A study of Mus musculus with 6 samples.

Results

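Proteasome subunit genes were taken as the rows of the gene table whose symbol begins with Psma, Psmb, Psmc, Psmd or Psme followed by a number. There were 43 such genes among the 53379 of the table. Neural stem cells (NSCs), cultured as neurospheres, came from the telencephalic cortex of E14.5 mouse embryos that were *Tbl1xr1* flox/flox, so every library carries the floxed allele. The cells received a lentivirus with Cre-GFP, whose recombinase removes the floxed exon (KO replicates 2, 2_2 and 3), or with GFP only (control replicates 1, 1_1 and 2). Only the KO cells received Cre, and no library has Cre without the floxed allele. Effects of Cre itself and of the loss of *Tbl1xr1* therefore cannot be told apart here. RNA-seq gave 3 libraries per group. The labels do not say whether control 1 and 1_1, or KO 2 and 2_2, came from 1 culture, so the p-values measure the spread between these libraries, which may be technical. Per the methods of the study, cells positive for GFP were sorted after infection. A whole-gene count does not measure the loss of 1 exon.

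The proteasome degrades proteins marked with ubiquitin. Its 20S core is a barrel of alpha rings, which gate the entrance, and beta rings, which hold the active sites; the 19S particle has a base of ATPases that unfold the substrate and a lid that removes ubiquitin, and other activators can cap the same core. Interferon replaces the 3 active beta subunits with Psmb8, Psmb9 and Psmb10, giving the immunoproteasome. TBL1XR1, the protein whose gene was targeted, is known as an exchange factor that brings the ubiquitin and 19S machinery to corepressor complexes at promoters, and the comparison here asks whether the RNA of that machinery differed between KO and control NSCs.

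Several members have near-identical copies elsewhere in the genome, so the sequences of those on which the counts turn are given first. *Psme2*, which encodes the beta subunit of the PA28 activator, and *Psme2b*, its intronless copy, have annotated coding sequences of 720 bases that are 99.31% identical, with 5 differences. Coding bases 481 to 600 hold 3 of the differences, shown in capitals.
Psme2: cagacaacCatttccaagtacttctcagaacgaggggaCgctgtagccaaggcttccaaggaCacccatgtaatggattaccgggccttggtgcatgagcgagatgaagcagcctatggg
Psme2b: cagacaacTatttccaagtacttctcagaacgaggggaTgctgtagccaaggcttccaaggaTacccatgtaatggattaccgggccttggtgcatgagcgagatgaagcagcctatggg

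*Psmb5* encodes the constitutive beta subunit with chymotrypsin-like activity. Its coding bases 1 to 150, from the annotated mm9 transcript, are shown because most of this stretch occurs a second time in the genome. Capitals mark the 144 bases that lie in a 32-base word with an exact copy elsewhere in the genome.
Psmb5: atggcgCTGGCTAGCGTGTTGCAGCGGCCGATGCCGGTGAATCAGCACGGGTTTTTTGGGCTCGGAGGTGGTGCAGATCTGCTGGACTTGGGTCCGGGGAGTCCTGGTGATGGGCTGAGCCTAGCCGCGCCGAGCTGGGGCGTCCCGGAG

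Promoter windows of *Psmb5*, *Psmb6* and *Psmb9*, from 250 bases before the start to 50 after it, are shown for the constitutive and the inducible catalytic subunits (RefSeq, GRCm38.p6). In *Psmb5* (chr14:54617946-54618245, minus strand) and *Psmb6* (chr11:70525107-70525406, plus strand), capitals mark TGACNNNGC, the antioxidant response element to which the transcription factors Nfe2l1 and Nfe2l2 bind. In *Psmb9* (chr17:34187281-34187580, minus strand), capitals mark a CCAAT box and an E2F motif, each lying on the opposite strand.
Psmb5 promoter: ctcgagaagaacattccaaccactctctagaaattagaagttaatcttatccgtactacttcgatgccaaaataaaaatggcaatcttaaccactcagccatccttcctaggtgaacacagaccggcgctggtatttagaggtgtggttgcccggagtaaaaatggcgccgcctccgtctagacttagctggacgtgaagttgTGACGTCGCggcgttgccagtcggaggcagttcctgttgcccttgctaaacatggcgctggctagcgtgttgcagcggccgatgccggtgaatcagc
Psmb6 promoter: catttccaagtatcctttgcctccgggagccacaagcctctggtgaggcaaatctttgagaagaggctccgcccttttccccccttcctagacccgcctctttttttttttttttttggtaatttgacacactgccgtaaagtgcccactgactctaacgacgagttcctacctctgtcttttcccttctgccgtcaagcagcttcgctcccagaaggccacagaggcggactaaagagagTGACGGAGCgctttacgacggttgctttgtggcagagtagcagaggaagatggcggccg
Psmb9 promoter: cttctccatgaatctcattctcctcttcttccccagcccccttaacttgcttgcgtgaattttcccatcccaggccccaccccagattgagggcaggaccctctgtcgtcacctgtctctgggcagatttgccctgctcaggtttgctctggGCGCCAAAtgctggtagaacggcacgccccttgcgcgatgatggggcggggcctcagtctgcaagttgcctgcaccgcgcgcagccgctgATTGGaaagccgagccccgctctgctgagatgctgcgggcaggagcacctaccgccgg

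The libraries held 7510615 to 11161497 reads on genes in control and 11893230 to 14828100 in KO. The values are normalized counts, that is reads divided by 1 size factor per library. The first principal component held 48.7% of the variance and separated the groups, while the second set KO 2 (36.1) and KO 3 (-36.9) apart from each other. *Tbl1xr1* itself stood at 2522, 2189.8 and 2721 normalized counts in control and at 3774, 3463 and 2905 in KO, so the libraries labelled KO were all higher (log2 fold change 0.45, SE 0.135, adjusted p = 0.06 by limma). Without KO 3 the adjusted p was 0.0234. The study reported loss of *Tbl1xr1* mRNA (RT-qPCR) and protein (Western blot) in the sorted KO cells, which these whole-gene counts do not show. Reads of the floxed exon were not analysed here. All 10 neural stem cell markers were above the filter, with a summed level of 39265 to 43344 in control and 39668 to 42228 in KO. Within that sum *Nes* was called lower in KO (log2 fold change -0.85, adjusted p = 0.00384, without overlap), *Vim* had -0.34, *Fabp7* 0.38 and *Slc1a3* 0.29, and the other 9 markers were not called.

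Differences were tested by limma after log2 transformation of the normalized count plus 1. The 14840 genes whose mean was 10 or more entered the fit, with Benjamini-Hochberg adjustment over all of them. Of the 43 subunit genes, 38 passed that filter. The other 5 were *Psma8*, *Psmb8*, *Psmb9*, *Psmb11* and *Psme2*. None of the 38 differed between KO and control at an adjusted p under 0.05, whereas 9.96% of all tested genes did, 4.74% higher and 5.22% lower in KO. edgeR and DESeq2 on the recovered reads also called 0 members. At an unadjusted p under 0.05, 9 members were lower and 0 were higher by limma (all genes: 13.2% lower, 12.2% higher), against 9 by edgeR and 8 by DESeq2. The smallest adjusted p was that of *Psme3*, at 0.0653.

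The direction was uneven. The log2 fold change was below 0 for 29 of the 38 (76.3%, against 50.1% of all tested genes), and its median was -0.12, against -0.001 over all genes. KO libraries lay wholly below control libraries for 10 members (26.3%) and wholly above for 0; over all genes these shares were 15.5% and 14.7%. The differences were small: the 95% interval stayed within 2-fold in both directions for 37 of the 38 (all genes: 69.1%) and within 1.5-fold for 25. *Psmb5* was the exception to the first count. The normalized counts summed over all 43 genes were 66439 to 68675 in control and 58010 to 64121 in KO. In bulk RNA, fewer cells of a type and less RNA per cell cannot be told apart.

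**Figure D1:**
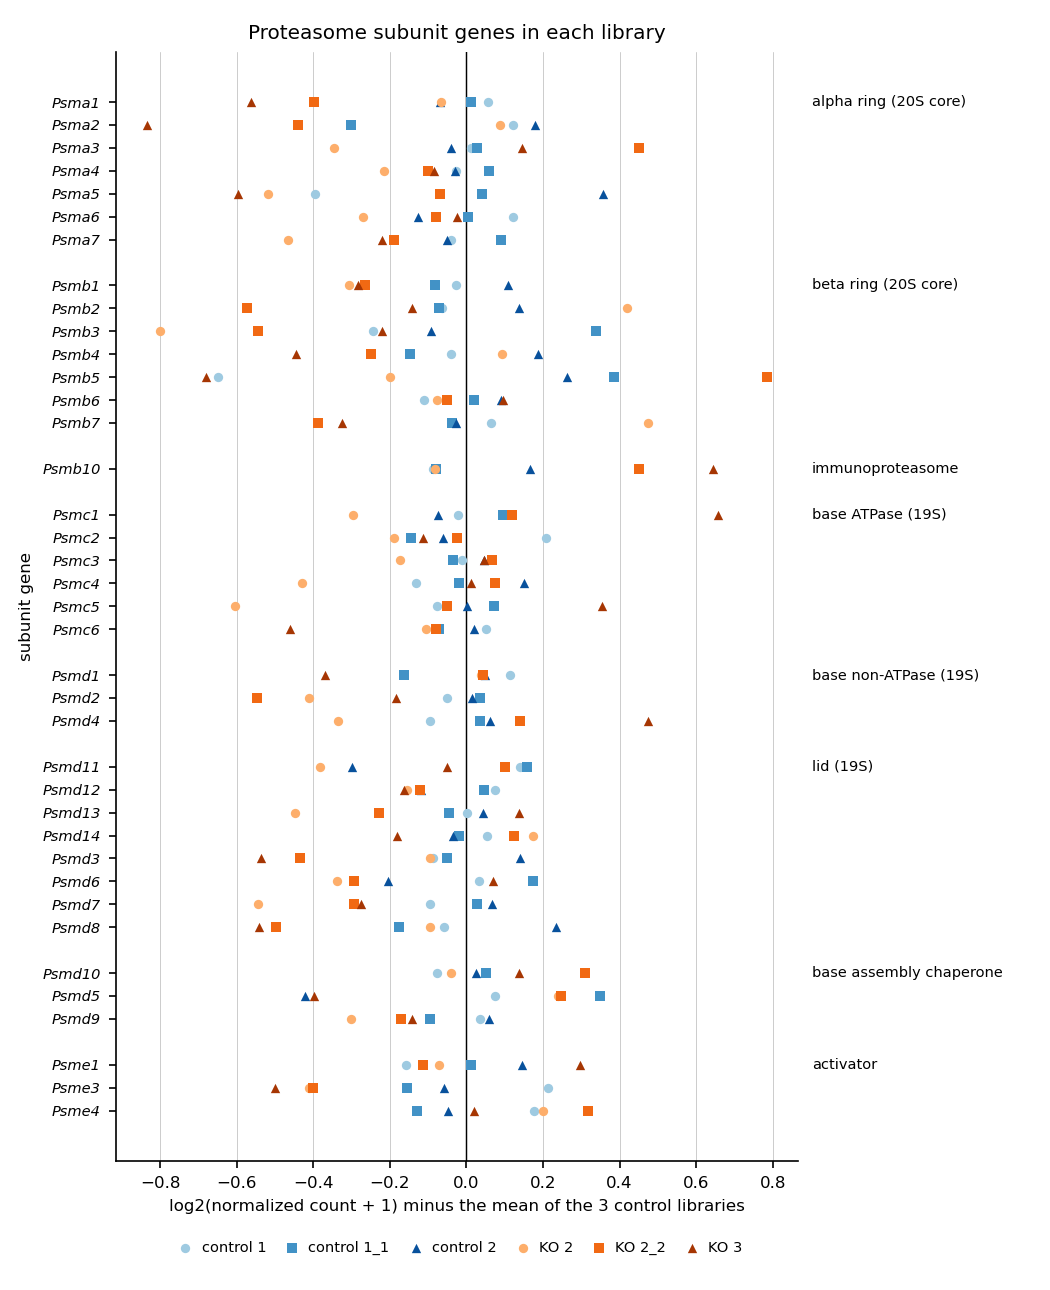
Each row is 1 of the 38 tested subunit genes and each point 1 library, placed by its log2(normalized count + 1) minus the mean of the 3 control libraries (blue, control; orange, KO). KO points lie wholly to the left of control points for 10 genes, and the SD on this scale is larger in KO than in control for 28 of the 38 (73.7%, against 65.5% of all tested genes).

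KO libraries varied among themselves more than control libraries did. The median SD on the log2 scale was 0.112 in control and 0.234 in KO over the members, against 0.181 and 0.253 over all genes. Leaving out KO 2 gave 5 calls among the 38 members, with *Psma1*, *Psma2*, *Psmd3* and *Psmd8* lower and *Psmb10* higher in KO. Calls over all 14840 tested genes rose as well, from 1478 with all libraries to 2396. Leaving out KO 3 gave 2 member calls, *Psmb3* and *Psmd2*, both lower, with 1437 calls over all genes. Leaving out any of the other 4 libraries gave 0 member calls, in fits that called only 558 to 724 of all 14840 tested genes.

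Of the 7 alpha ring genes, 6 had a log2 fold change below 0, with a median of -0.29, and 2 were lower at the unadjusted threshold. At that threshold 13.2% of all tested genes were lower and 12.2% higher. Counts in single roles, here and below, are small beside these shares, and differences between roles were not tested. *Psma2* was the most negative, with 2450.2, 1830.0 and 2551 normalized counts in control and 2394, 1659.8 and 1262 in KO. The groups overlapped, since KO 2 lay above control 1_1, and the log2 fold change of -0.40 (SE 0.211) had an adjusted p of 0.27 by limma. *Psma3*, whose product helps to close the gate of the barrel, was the only alpha gene above 0, at 382, 386 and 368 in control and 298, 517 and 419 in KO. The KO values lay on both sides of the control values (log2 fold change 0.08, SE 0.186, adjusted p = 0.823). *Psma7* had the highest level per length of the 43 genes, taking the longest annotated transcript of each. It reached 5992 ± 333 normalized counts per 1000 transcript bases in control (SD, n = 3). Its counts were 5319.9, 5828 and 5283 in control and 3964, 4796 and 4693 in KO, without overlap (log2 fold change -0.29, SE 0.122, adjusted p = 0.158). *Psma1* reached 1132, 1099 and 1038 in control and 1039.5, 826 and 737 in KO (log2 fold change -0.34, adjusted p = 0.153), and only KO 2 reached the range of control. Summed over the 7 genes, the level was 11273 to 11398 in control and 9069 to 9762 in KO.

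All 7 constitutive beta ring genes were below 0, with a median log2 fold change of -0.10, and 2 of them passed the unadjusted threshold. *Psmb3*, a structural subunit, was the most negative member of all, at 367, 550.0 and 408 in control and 249, 298 and 373 in KO (log2 fold change -0.52, SE 0.191, adjusted p = 0.111). Only KO 3 reached the control range. *Psmb1*, also structural, had 1952, 1878 and 2146 in control against 1607, 1655 and 1633 in KO, without overlap (log2 fold change -0.29, SE 0.11, adjusted p = 0.13). *Psmb6*, which encodes the subunit with caspase-like activity, was the nearest to 0, at 2523, 2760.3 and 2902 in control and 2584, 2628 and 2910.0 in KO. Its log2 fold change of -0.01 had a 95% interval from -0.26 to 0.24. *Psmb7*, for the trypsin-like subunit, stood at 1534, 1428 and 1440.3 in control and 2037, 1120.0 and 1171 in KO, so KO 2 was above and the other KO libraries below every control library (log2 fold change -0.08, adjusted p = 0.84). *Psmb5* had 7.34, 16.1 and 14.7 normalized counts in control and 10.4, 21.5 and 7.16 in KO (log2 fold change -0.03, 95% interval -1.16 to 1.09), the lowest level of any constitutive core gene. Summed over the 14 alpha and beta genes, the level was 20324 to 21208 in control and 17154 to 18812 in KO.

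The immunoproteasome genes were low. *Psmb8*, which encodes the inducible chymotrypsin-like subunit, had 6.42, 2.93 and 4 normalized counts in control and 9.7, 6.89 and 4.48 in KO. *Psmb9*, the inducible counterpart of *Psmb6*, had 0.918, 8.78 and 4 in control and 9.7, 1.72 and 1.79 in KO. Both stayed below the filter on low values, and at this depth a difference was not detectable. *Psmb10*, the inducible counterpart of *Psmb7*, was higher, at 204, 205 and 243 in control and 204, 296 and 338 in KO. KO 2 lay at the control level and KO 2_2 and KO 3 above it (log2 fold change 0.34, SE 0.195, adjusted p = 0.311). Without KO 2 the gene was called higher, in a fit that called 2396 of all 14840 tested genes, against 1478 with all libraries. Per 1000 transcript bases in control, *Psmb10* reached 171 ± 17.5 and *Psmb7* 1265 ± 50.2 normalized counts (SD, n = 3). *Psma8*, a testis alpha subunit, was at 0 in 5 libraries and at 1.39 in KO 2, and *Psmb11*, the thymus beta subunit, had 3.67, 7.31 and 2.67 in control and 3.46, 0 and 0.895 in KO.

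Each inducible gene was also set against its constitutive counterpart within a library, as log2((count + 1)/(count + 1)). KO minus control was 0.59 for *Psmb8* over *Psmb5*, -0.06 for *Psmb9* over *Psmb6* and 0.42 for *Psmb10* over *Psmb7*. Few reads lie behind some of these genes: per library, 2 to 14 for *Psmb8*, 8 to 25 for *Psmb5* and 1 to 14 for *Psmb9*. Adding 0.5 or 5 in place of 1 gave 0.64 or 0.36 for *Psmb8* over *Psmb5*. The exact two-sided permutation test with n = 3 per group gave p = 0.4, 1 and 0.4, and 0.6, 1 and 0.6 after adjustment over the 3 pairs; the smallest p this design allows is 0.1. The ratio of *Psmb10* to *Psmb7* was -2.91, -2.79 and -2.56 in control and -3.31, -1.92 and -1.79 in KO, so KO 2 had the lowest ratio of all and the other KO libraries the highest ones. Leaving out 1 library moved the differences widely, from 0.18 to 1.16 for *Psmb8* over *Psmb5* (without control 1_1 and control 1), from -0.74 to 0.49 for *Psmb9* over *Psmb6* (without KO 2 and control 1_1) and from 0.14 to 0.90 for *Psmb10* over *Psmb7* (without KO 3 and KO 2).

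**Figure D2:**
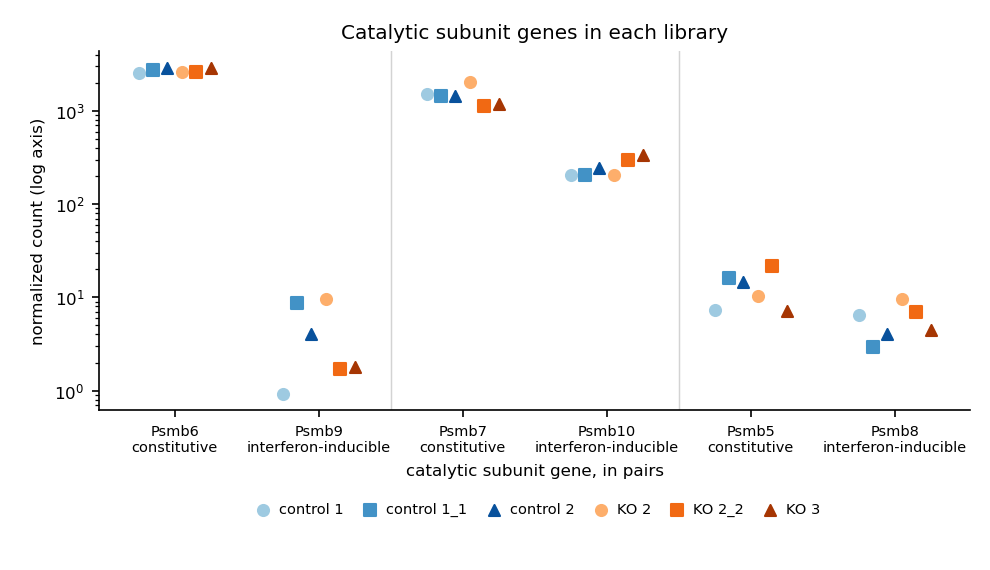
Normalized counts (log axis) of the catalytic subunit genes in each library, with each constitutive gene beside its interferon-inducible counterpart (blue, control; orange, KO). *Psmb6* and *Psmb7* lie between 1120.0 and 2910.0, *Psmb10* between 204 and 338, and *Psmb5*, *Psmb8* and *Psmb9* below 22 in every library.

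In the 19S base, 5 of the 6 ATPase genes were below 0, with a median log2 fold change of -0.10 and 0 past the unadjusted threshold. *Psmc6* was the most negative, at 2355, 2162 and 2306 in control and 2112, 2151 and 1652 in KO. The KO values were all lower, KO 2_2 by little (log2 fold change -0.21, SE 0.129, adjusted p = 0.331). *Psmc1* was the only one above 0, at 1444, 1567 and 1392 in control and 1195, 1591 and 2313 in KO (log2 fold change 0.16, SE 0.198, adjusted p = 0.667). KO 2 was the lowest and KO 3 the highest library. The summed ATPase level was 12742 in KO 2 and 16691 in KO 3, on either side of the control range of 15288 to 15601.

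Of the 3 non-ATPase base genes, *Psmd2*, which encodes a scaffold that docks shuttle receptors, had 1734, 1843 and 1815 in control and 1351, 1230.2 and 1583 in KO. The groups did not overlap, and the log2 fold change was -0.38 (SE 0.124, 95% interval -0.65 to -0.11, adjusted p = 0.0771). *Psmd4*, a receptor for ubiquitin chains, had 5479, 5995 and 6107 in control and 4639, 6451 and 8134 in KO (log2 fold change 0.09, SE 0.179, adjusted p = 0.794), again with KO 2 lowest and KO 3 highest. *Psmd1*, the other scaffold, had a log2 fold change of -0.10.

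The lid genes were below 0 in 7 of 8 cases, with a median log2 fold change of -0.18, and 3 passed the unadjusted threshold. *Psmd8* was the most negative, at 1925, 1774 and 2358 in control and 1877, 1419.6 and 1377 in KO. KO 2 lay within the control range (log2 fold change -0.38, SE 0.153, adjusted p = 0.147). *Psmd7*, the partner of the lid's deubiquitinase, stood at 3437, 3748 and 3849 in control against 2517, 2998 and 3037 in KO, without overlap (log2 fold change -0.37, SE 0.12, adjusted p = 0.0769). *Psmd3* did not overlap either, with 3993, 4093 and 4673 in control and 3974, 3139 and 2925 in KO (log2 fold change -0.36, adjusted p = 0.133). *Psmd14*, the deubiquitinase itself, was the only lid gene above 0, at 882, 838 and 829.5 in control and 958, 926 and 749 in KO (log2 fold change 0.04, 95% interval -0.24 to 0.32). The summed lid level was 17762 to 18652 in control and 14887 to 15692 in KO, a gap that the summed base level, 24482 to 25323 in control and 20522 to 27756 in KO, did not show. The difference between lid and base was not tested.

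The 3 genes for chaperones that assemble the base had small differences. *Psmd9* had 361, 329 and 367 in control and 285, 313 and 319 in KO, without overlap (log2 fold change -0.20, SE 0.135, adjusted p = 0.379). *Psmd10* had 397, 434 and 427 in control and 408, 520.0 and 461 in KO (log2 fold change 0.14, SE 0.137, adjusted p = 0.585). *Psmd5* had a log2 fold change of 0.03. KO values of the last pair of genes overlapped with control values.

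Among the activators, *Psme3*, which encodes the nuclear PA28 gamma, had the smallest p of all members. Its counts were 677, 525 and 561 in control and 439, 442 and 413 in KO, so that all KO libraries lay close together and below every control library (log2 fold change -0.44, SE 0.136, 95% interval -0.74 to -0.14, adjusted p = 0.0653 by limma). *Psme4*, which encodes the nuclear activator PA200, was at 1815, 1469 and 1552 in control and 1845, 2001 and 1629 in KO (log2 fold change 0.18, SE 0.129, adjusted p = 0.423). *Psme1*, the alpha subunit of PA28, had a log2 fold change of 0.04. *Psme2*, its partner, was counted at 4.59, 1.46 and 1.33 in control and 6.93, 4.3 and 0 in KO.

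**Figure D3:**
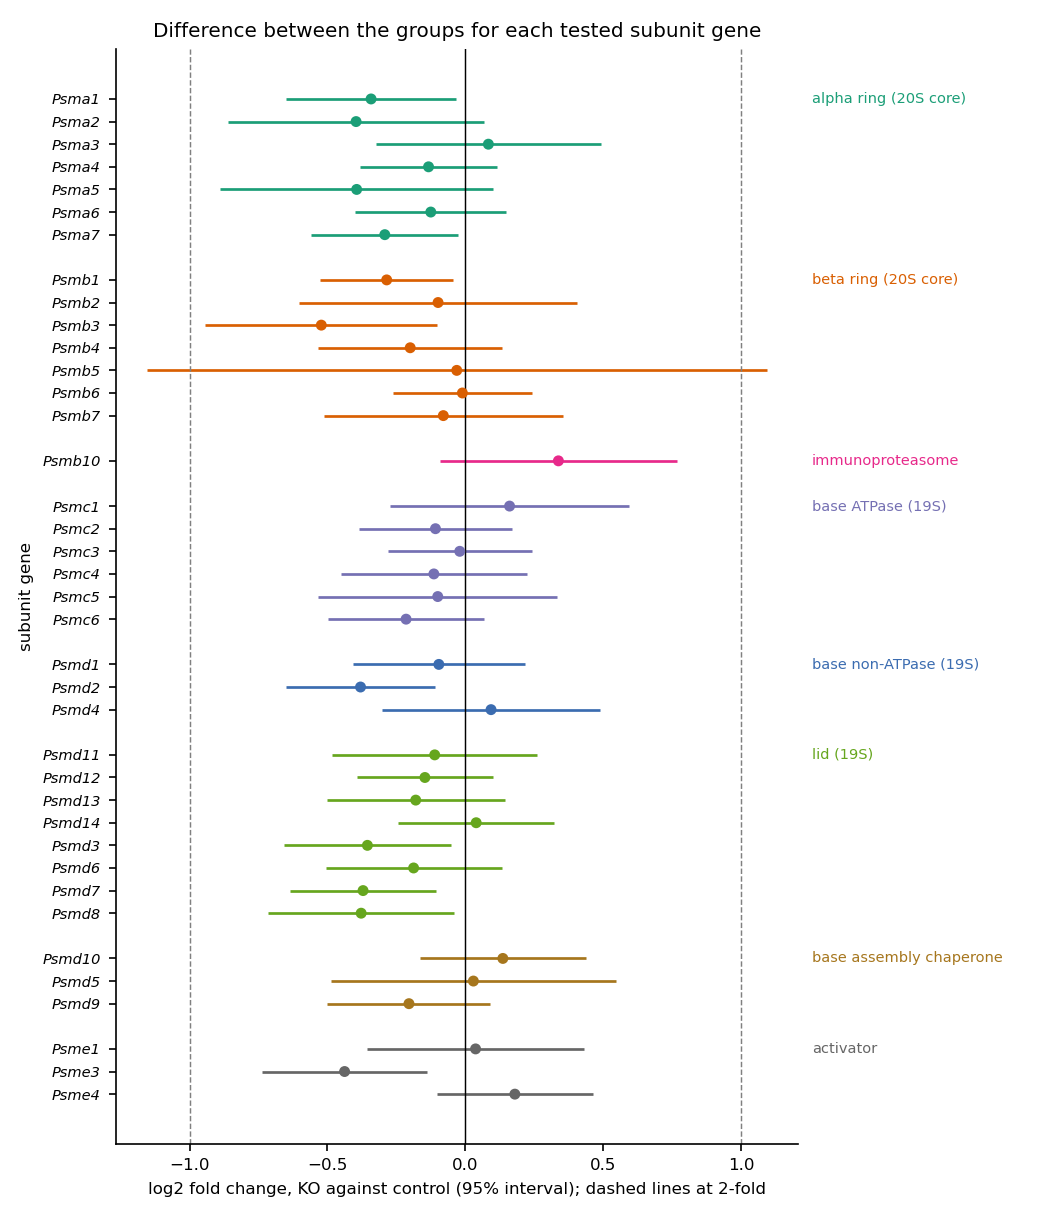
Points are log2 fold changes of KO against control for the 38 tested subunit genes, grouped by role, with 95% intervals from limma; dashed lines mark 2-fold. The interval excludes 0 for 9 genes, all on the negative side, and crosses a dashed line only for *Psmb5*.

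The search for 32-base words of each member's longest annotated transcript (mm9, GENCODE M1) found at least 1 other place with 20% or more of the words for 9 of the 43 genes. The shares of words with an exact copy were 78.4% in *Psmb3*, 77.5% in *Psmb5*, 66.6% in *Psma5*, 65.8% in *Psme2*, 60.5% in *Psma4*, 43.4% in *Psmd2*, 42.2% in *Psmc1*, 39.2% in *Psma3* and 29% in *Psmd11*. The 8 of these that were tested had a median of 392 normalized counts per 1000 transcript bases in control, and the 30 without such a place had 935. These levels depend on the use of the longest transcript. It has 2846 bases in *Psma3* and 2848 in *Psmd11*, where the median transcript lengths are 867 and 646. Their median log2 fold changes were -0.12 in both sets, with 6 of 8 and 23 of 30 below 0. How reads that match several places were counted is not given in the sources used here, and its part in these levels was not tested.

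**Figure D4:**
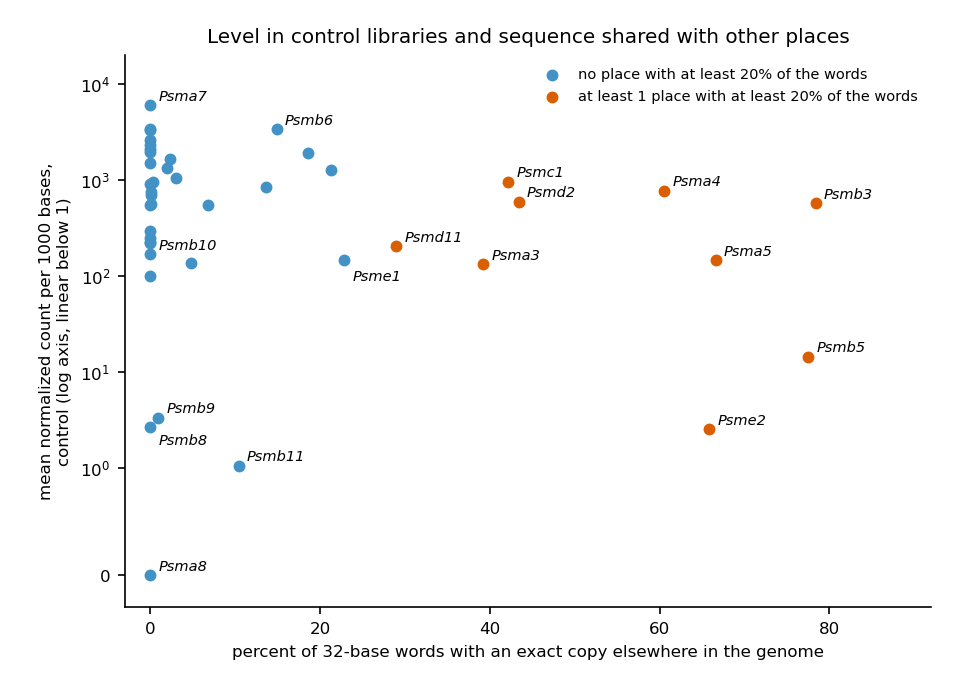
Each point is 1 of the 43 subunit genes, placed by the percent of its 32-base words with an exact copy elsewhere and by its mean normalized count per 1000 transcript bases in control (log axis, linear below 1). *Psmb5* and *Psme2*, at 14.6 and 2.56, lie below every other gene with at least 20% of its words at 1 other place (orange).

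The copies themselves held counts. *Psme2b* had 297, 197 and 321 normalized counts in control and 293, 237 and 151 in KO, far above *Psme2* in every library. For *Psmb5*, the second place lay on chromosome 7 (mm9, 3181100 to 3181960). GENCODE M1 has no gene there, so no count could be matched to it. The pseudogene *Psmb5-ps*, whose position was not compared with this place, was at 0 in all 6 libraries. For *Psmb3*, the copy *Gm4950* had 305, 282 and 329 in control and 190, 158 and 125 in KO, without overlap (log2 fold change -0.97, SE 0.179, adjusted p = 0.00708 by limma). Its other annotated copy, *Gm6467*, holds more of the words (59%, against 39.7% for *Gm4950*) but few counts. It had 11, 7.31 and 9.34 in control and 4.85, 15.5 and 6.27 in KO, with the groups overlapping. For *Psmd2*, the copy *Gm5422* had 552, 464 and 437 in control and 389, 297 and 385 in KO (log2 fold change -0.44, adjusted p = 0.0987).

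The counts of annotated copies were then added to their gene, an alternative chosen after seeing the data. *Psmb3* with its copies stood at 683, 839.6 and 747 in control and at 445, 471 and 505 in KO, and the groups no longer overlapped. The log2 fold change became -0.67 with an adjusted p of 0.00863, the only member called in this fit. *Psmd2* gave -0.39 (adjusted p = 0.0641), *Psmc1* 0.12 and *Psma3* -0.03, the last with the sign turned. Reads of *Psmb3* and of *Gm4950* cannot be told apart where their sequence is shared.

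**Figure D5:**
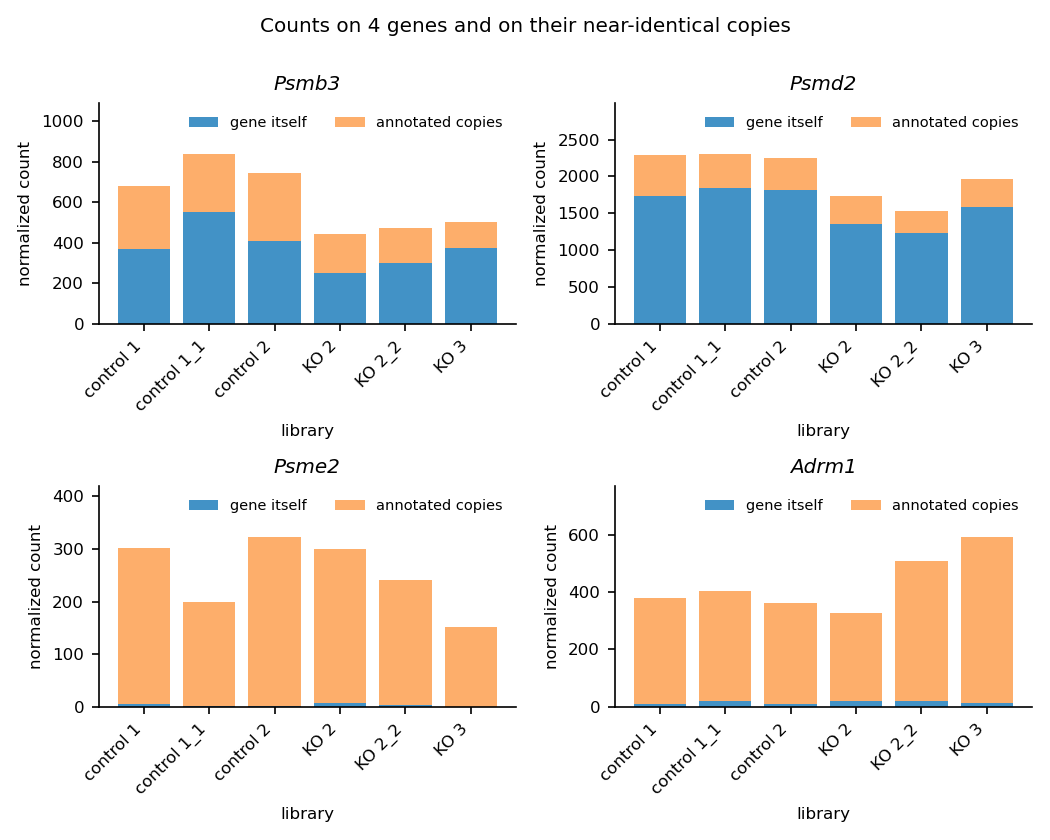
Stacked bars give the normalized counts of a gene (blue) and of its annotated near-identical copies (orange) in each library, for *Psmb3*, *Psmd2*, *Psme2* and the ubiquitin receptor gene *Adrm1*. The *Psmb3* totals are 683 to 839.6 in control and 445 to 505 in KO, while most of the counts for *Psme2* and *Adrm1* stand on the copies.

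In the RefSeq table, 39 promoter windows matched 36 of the 43 members. TGACNNNGC, on either strand, was in 6 of them (15.4%, against 12.4% of all 32851 windows), those of *Psmb5*, *Psmb6*, *Psmc6*, *Psmd9*, *Psmd12* and *Psme4*. The log2 fold change was below 0 for all of these except *Psme4* (0.18), from -0.01 in *Psmb6* to -0.21 in *Psmc6*. Over all tested members, 29 of the 38 were below 0. GAAANNGAA, bound by interferon regulatory factors, was in 6 windows (15.4%, against 8.56%). These were of *Psmb3*, *Psmb4*, *Psmc2*, *Psmd4*, *Psmd9* and *Psme1*, with none of *Psmb8*, *Psmb9* and *Psmb10* among them. CCAAT was in 14 (35.9%, against 37.4%), and TTTGGCGC or TTTCCCGC, bound by E2F factors, in 3 (7.69%, against 1.56%), which were *Psmb9*, *Psmc2* and *Psmc4*. A match describes the letters only. The printed *Psmb9* window shares 275 of its 300 bases with that of *Tap1*, a peptide transporter gene on the opposite strand. *Tap1* had 55.1, 70.2 and 70.7 normalized counts in control and 83.8, 50.8 and 102 in KO, well above *Psmb9* in each library (log2 fold change 0.22, adjusted p = 0.674).

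Other genes of the ubiquitin-proteasome pathway were read from a list of 43, of which 38 were tested. By limma, 1 was higher and 2 were lower in KO, that is 7.89% of those tested, no larger a share than the 9.96% of all tested genes. *Psmg3*, which encodes a chaperone of alpha ring assembly, fell from 1042, 1024 and 1291 to 857, 641 and 552, without overlap (log2 fold change -0.73, SE 0.168, adjusted p = 0.0209). All 5 core assembly chaperone genes were below 0, with a median log2 fold change of -0.33. Among them *Pomp*, the proteasome maturation protein, had 8619.9, 7530.5 and 9712 in control and 8914, 7729.9 and 6481 in KO (log2 fold change -0.17, adjusted p = 0.539). *Ubqln4*, a shuttle receptor that brings ubiquitinated proteins to the proteasome, fell from 325, 342 and 373 to 152, 201 and 247 (log2 fold change -0.82, SE 0.185, adjusted p = 0.0189). Calls depended on single libraries: *Psmg3* and *Ubqln4* lost theirs without control 1, control 1_1, control 2 or KO 2_2, with the same sign.

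*B2m*, the light chain of MHC class I, rose from 566, 589.5 and 625 to 803, 936 and 903, without overlap (log2 fold change 0.57, SE 0.121, adjusted p = 0.0144). Its call was lost without control 1, control 1_1 or KO 2_2. Of the 10 immune markers, *C1qa*, *C1qb* and *Tyrobp* were at 0 in every library. The summed level of the list was 178 to 217 in control and 177 to 286 in KO, and most of it was *Csf1r*, at 201, 154 and 195 in control and 162, 264 and 239 in KO (log2 fold change 0.25, adjusted p = 0.483). *Cd68*, the other immune marker above the filter, had a log2 fold change of 0.47 (adjusted p = 0.614). Their part in the level of *B2m* was not tested. *Tap2* had 11, 7.31 and 2.67 in control and 17.3, 12.1 and 3.58 in KO, below the filter.

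The ubiquitin receptor gene *Adrm1* was low, at 10.1, 19 and 9.34 in control and 20.1, 18.9 and 15.2 in KO (log2 fold change 0.52, adjusted p = 0.471), and 81.8% of its words had a copy. Its copy *Gm9774* had 351 to 385 in control and 306 to 577 in KO. Of the deubiquitinases bound to the 19S particle, *Uchl5* had 926, 905 and 840.2 in control and 706, 709 and 735 in KO, without overlap (log2 fold change -0.31, adjusted p = 0.11), and *Usp14* had 1114, 1154 and 1019 against 796, 1081 and 1077 (log2 fold change -0.17, adjusted p = 0.51). *Nfe2l1*, a transcription factor that induces subunit genes when the proteasome is inhibited, had 1992, 2728 and 2182 in control and 2338, 1956 and 2946 in KO (log2 fold change 0.06, 95% interval -0.30 to 0.43), with the groups overlapping.

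Other lists were also compared between the groups. Over all tested genes, 5.22% were called lower and 4.74% higher in KO. All 12 S phase genes were below 0 and 8 of them were called lower in KO, with a summed level of 12952 to 15332 in control and 8445 to 9329 in KO. Of the 8 astrocyte markers, 7 were tested and 4 were called higher, and the summed level was 6897 to 8067 in control and 12942 to 16505 in KO. The largest part of that sum was *Sox9* (means of 4272 in control and 8657 in KO). *Aldh1l1* went the other way at a low level, without overlap (means of 17.3 and 5.35, log2 fold change -1.65, adjusted p = 0.065 by limma). *Gfap* was below the filter. Of the 8 oligodendrocyte lineage markers, 6 were tested and 3 were called higher, from a summed level of 12488 to 14404 to one of 17236 to 19639. Of the 10 neuron markers, 7 were tested and 1 was called lower, with a summed level of 17603 to 18678 in control and 14804 to 16799 in KO. That sum is almost wholly *Gap43*, the gene called lower (means of 8711 in control and 5196 in KO), and *Map2*, whose KO libraries all lay above control (means of 9210.0 and 10541, log2 fold change 0.19, adjusted p = 0.337). The part of any of these in the levels of the subunit genes was not tested.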

How the data were processed

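RNA-seq values of 6 libraries were analysed. The authors deposited, per gene and library, normalized counts from DESeq2, a signal equal to the read count divided by 1 size factor. The study's methods name TopHat with mm9 and mm10, whereas the submitters' processing notes name STAR 2.7 and mm10; the counter, its use of strand, the annotation and the handling of reads with several matches are not given in the sources used here. Columns of the authors' own comparison (fold changes, errors, p-values) were not used. Of 53379 genes, 873 had no name and 1 lacked a value and was left out. Whole reads were recovered for 100% of the values (tolerance 0.01 reads).

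limma 3.58.1 in R 4.3.3 (lmFit, eBayes with trend) was fitted to log2(normalized count + 1) for genes with a mean of at least 10, with a threshold of 0.05 on the adjusted p. edgeR 4.0.16 and DESeq2 1.42.0 on the recovered reads were among 18 alternatives. All members are counted; values are given for the extremes of each role, the catalytic pairs, the genes below the filter and pathway genes that were called or chosen by name. *Psma1*, *Psma7*, *Psmb1*, *Psmd3* and *Psmd7*, and the copies, were added after their values were seen. 1 gene of the pathway list is not reported here. Members and lists were chosen with earlier results of these data known. Figures were drawn with matplotlib 3.10.9. The fits were tested on simulated data with 2-fold changes and the same dispersion in both groups. That setting does not test how well differences as small as those of the members are found.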

Additional observations from a re-analysis of the deposited data

How the results depend on the processing

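The number of genes called among all 14840 was 1478 and fell to 660 with control 1 and 1_1 averaged and to 885 with both pairs averaged. It ran from 558 (without control 1) to 2396 (without KO 2) when 1 library was left out. For the subunit genes, the count of 0 became 1 with the annotated copies added and ran from 0 to 5 when 1 library was left out (5 without KO 2, 2 without KO 3). For the other pathway genes, the count of 3 became 0 with control 1 and 1_1 averaged and 1 with both pairs averaged, and ran from 0 to 5 when 1 library was left out. *Tbl1xr1* passed the threshold with DESeq2 (log2 fold change 0.45, adjusted p = 0.0398), and its log2 fold change ran from 0.36 to 0.55 when 1 library was left out. The immunoproteasome ratios could not pass the threshold in any setting, since the smallest p is 0.1, so their p-values say nothing about stability.

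Over the 47 named genes and 18 alternatives, 820 values kept their side of the threshold, 16 lost and 8 gained a call. Among values without a call, 38 had the other sign, spread over 16 genes, most often *Psmb5* (6) and *Psmb6*, *Psmd5* and *Psmd14* (4 each). The members' median was below that of all genes by 0.10 to 0.16 on the log2 scale in every alternative. No paired analysis was possible because the groups share only 1 replicate number. With 3 libraries per group, differences well under 1.5-fold and genes of a few reads are at the limit of what could be detected, and counts of genes with copies depend on read handling that is not stated.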
